A study of Mus musculus with 10 samples.

Results

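Spry1, Spry2, Spry4, Spred1, Spred2, Dusp4, Dusp6, Etv1, Etv4 and Etv5 are genes that respond to EGF and FGF and that restrain ERK signalling or carry it to transcription. They were chosen by name, with earlier results of these data known. All 10 were among the 21101 genes of the deposited table and among the 15660 genes tested. RNA sequencing measured gene expression in mouse neural stem cells that lack p53 and were transduced with mutant IDH1, IDH1(R132H). The Atrx-deleted lines were mA16d#4, mA19d#4 and mA19d#7, and the control lines were Control NSC#1 and Control NSC#2. Atrx encodes a chromatin remodeller, and the series asks what its loss does to neuronal differentiation. Each line was sampled once in differentiation medium (neural basal with B27, no EGF, no bFGF) after 8 days and once under growth factors, EGF and bFGF (20 ng/ml), in proliferation medium. The 4 groups were therefore 3 Atrx-deleted differentiation, 3 Atrx-deleted proliferation, 2 control differentiation and 2 control proliferation libraries. Every group, controls included, carries the p53 loss and the mutant IDH1, so neither was compared with its absence. Loss of the growth factors is called withdrawal here. It came with a change of medium and 8 days in culture, and the labels give no sample that parts these.

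EGF and bFGF bind receptor tyrosine kinases that activate RAS, RAF, MEK and ERK in turn, and active ERK switches on genes whose products damp the same pathway. Sprouty and Spred proteins act on the RAS and RAF steps, dual-specificity phosphatases (DUSPs) remove phosphate from MAP kinases, and the PEA3 factors Etv1, Etv4 and Etv5 are ETS transcription factors that carry the signal to target genes. Capicua, encoded by Cic, is a repressor of PEA3, Sprouty and DUSP genes that ERK signalling inactivates, and neural stem cells are kept dividing in culture by EGF and bFGF.

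Promoters of 3 of the 10 genes are shown first, as 250 bases before to 50 bases after an annotated start, from RefSeq on GRCm38.p6. Of the 10 genes, 7 had promoter windows in the search, 9 windows in all. No window of Spry4, Dusp4 or Etv4 was searched, so the word counts below do not cover these genes. Etv5 and Spred2 are shown because their transcripts fell on withdrawal, and Dusp6 because it did not pass the test. Capitals mark TGAATG or CATTCA, the core of the capicua octamer on either strand, and AGGAAG or CTTCCT, a purine-rich ETS word on either strand. No marked word overlaps another.

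Etv5, chr16:22439521-22439820, minus strand: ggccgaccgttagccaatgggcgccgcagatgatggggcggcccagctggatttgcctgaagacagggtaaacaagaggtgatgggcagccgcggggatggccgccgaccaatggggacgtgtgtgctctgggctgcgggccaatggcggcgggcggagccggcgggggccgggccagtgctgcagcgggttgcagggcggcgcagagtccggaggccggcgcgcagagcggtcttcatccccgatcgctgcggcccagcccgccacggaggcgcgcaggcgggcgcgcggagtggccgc
Etv5, chr16:22438319-22438618, minus strand: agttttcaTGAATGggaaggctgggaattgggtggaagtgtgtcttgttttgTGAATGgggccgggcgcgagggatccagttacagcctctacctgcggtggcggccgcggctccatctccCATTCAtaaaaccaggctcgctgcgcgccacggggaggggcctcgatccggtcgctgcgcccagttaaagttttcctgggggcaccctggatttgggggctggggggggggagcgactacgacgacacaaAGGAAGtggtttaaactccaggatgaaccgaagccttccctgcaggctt
Spred2, chr11:19924192-19924491, plus strand: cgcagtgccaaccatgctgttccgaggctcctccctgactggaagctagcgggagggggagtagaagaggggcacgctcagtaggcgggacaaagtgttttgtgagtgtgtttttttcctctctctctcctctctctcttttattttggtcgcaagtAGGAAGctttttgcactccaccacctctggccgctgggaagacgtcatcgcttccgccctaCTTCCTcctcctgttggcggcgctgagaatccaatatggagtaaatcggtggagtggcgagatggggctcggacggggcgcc
Dusp6, chr10:99262981-99263280, plus strand: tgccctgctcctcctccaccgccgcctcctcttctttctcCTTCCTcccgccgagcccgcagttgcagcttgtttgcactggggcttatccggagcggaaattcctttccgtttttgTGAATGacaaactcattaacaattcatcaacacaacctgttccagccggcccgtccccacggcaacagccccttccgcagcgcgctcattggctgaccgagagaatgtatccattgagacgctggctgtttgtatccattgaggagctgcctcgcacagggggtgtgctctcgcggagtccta

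The second Etv5 window held 3 matches to TGAATG, starting 242, 198 and 129 bases before the start. Dusp6 held 1, 133 bases before its start. At least 1 match was thus in 2 of the 9 windows, against 12.7% of all 32851 windows of the same length. The first Etv5 window had no capitals and a GC content of 74.0%, above the upper quartile of 61.7% over all windows. AGGAAG was found 2 times in Spred2 and in 4 of the 9 windows, against 35.4% of all windows. Neither full octamer, TGAATGAA (1.3% of all windows) nor TGAATGGA (1.21%), was in any of the 9 windows, and nor were CCGGAAGT (3.89%), the AP-1 word TGANTCA (7.81%) or the cyclic AMP response word TGACGTCA (1.79%). The CCAAT box was in 5 of the 9 windows (37.4% of all) and GGGCGG in 4 (35.7%), all words being searched on both strands. A match is a description of letters, not a bound site.

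Values are on the scale of TPM, a share of all transcripts scaled for transcript length. The deposited table holds the same set of values in every library, so a value reflects a gene's rank in its library, not a measured share. The depth of a library cannot be read from the table, and counting error is not given. Atrx ranged from 42.8 to 74.0 TPM in the 6 Atrx-deleted libraries and from 126.7 to 162.6 TPM in the 4 control libraries. The stem cell marker Nes stayed between 245.2 and 753.3 TPM in all 10 libraries. Microglial and endothelial markers were low, with at most 11.2 TPM (P2ry12) and 5.37 TPM (Vwf). The library labelled mA19d#7 in differentiation medium was most like a library of another line and medium. Its Spearman correlation over all 21101 genes of the table was 0.963 with the mA16d#4 library in proliferation medium. It was 0.946 with mA16d#4 and 0.926 with mA19d#4 under withdrawal, and 0.94 with its own line label under growth factors. Several results that rest on it are given with and without it, and other fits, such as those of Hbegf, Cyr61 and Ets1, only with it. The p-values measure the spread between these lines, and no label says whether the lines arose independently.

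Withdrawal was compared over all 5 lines first, as the mean of the difference in the control lines and the difference in the Atrx-deleted lines. Each of the 2 control lines thus counts more than each of the 3 Atrx-deleted lines. With every line counted alike, the mean log2 change was -0.94 for Spry4, -0.93 for Etv5, -0.43 for Spred2 and 0.31 for Dusp4. In the fitted comparison 3 of the 10 genes fell: Spry4, Etv5 and Spred2. None rose. Among all tested genes 10.4% passed in either direction, 4.68% rose and 5.72% fell (limma, Benjamini-Hochberg adjusted p under 0.05 over 15660 genes). The median log2 difference was -0.392 over the 10 genes and 0.00282 over all tested genes, with 7 of the 10 below 0 where 49.7% of all genes were. At an unadjusted p under 0.05 there were 5 of the 10, Spry1 and Spry2 besides these 3, and 25.7% of all tested genes. In bulk RNA, fewer cells that express a gene and less RNA per cell cannot be told apart. All log2 differences are on log2(TPM + 1), differentiation minus proliferation, and understate changes of low genes.

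**Figure D1:**
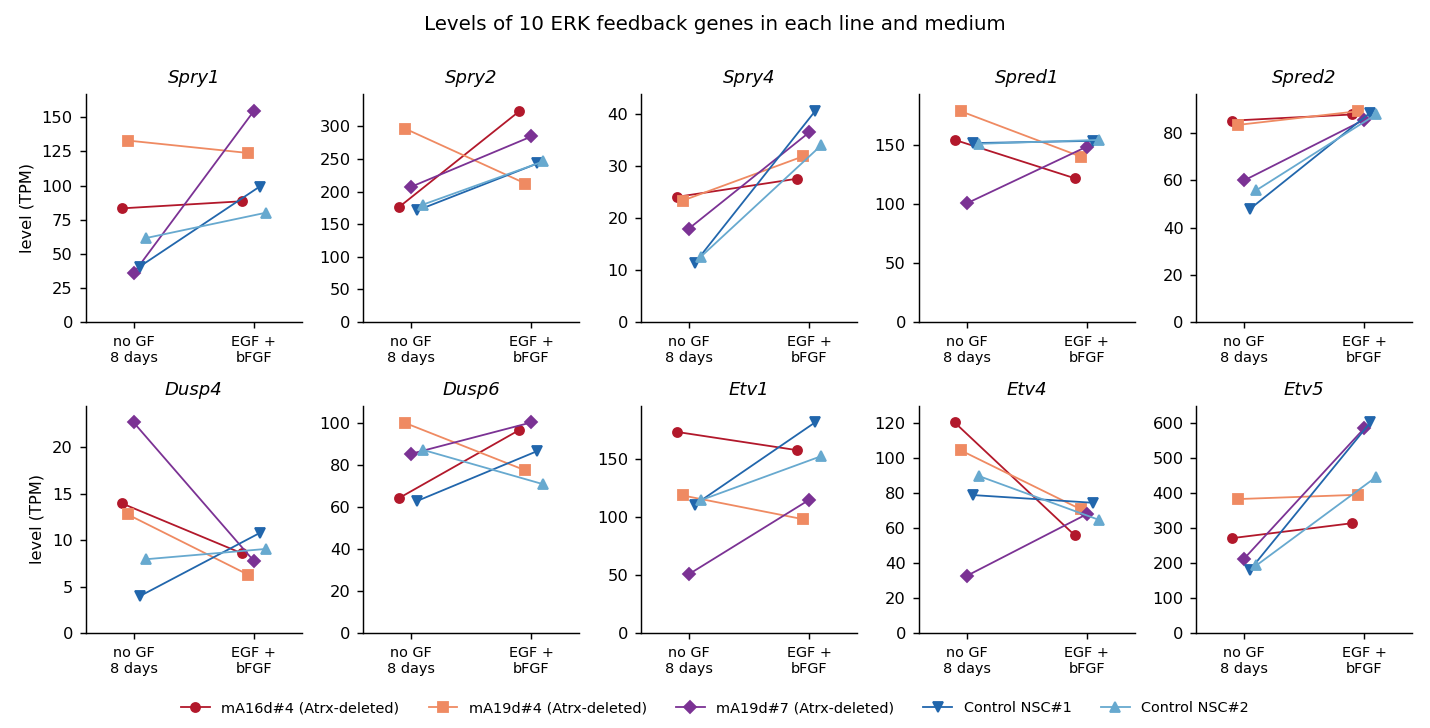
Level of each of the 10 genes in TPM (vertical axes, each from 0) in differentiation medium without growth factors and in proliferation medium with EGF and bFGF; each line joins the 2 libraries of 1 cell line. Spry4, Spred2 and Etv5 slope the same way in all 5 lines, and Dusp4 slopes one way in the 3 Atrx-deleted lines and the other way in the 2 control lines.

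Among the Sprouty genes, whose products restrain receptor tyrosine kinase signalling, Spry4 (ENSMUSG00000024427) was the one lower after withdrawal in all 5 lines. After withdrawal it had 24.1, 23.4 and 18.0 TPM in mA16d#4, mA19d#4 and mA19d#7, against 27.6, 31.9 and 36.5 TPM in the same lines with growth factors. In Control NSC#1 and Control NSC#2 it had 11.4 and 12.6 TPM after withdrawal, against 40.6 and 34.0 TPM with growth factors. The media did not overlap in either genotype, and the control lines held the lowest levels after withdrawal. Within lines the level left was 87.5%, 73.3% and 49.2% of the proliferation level in mA16d#4, mA19d#4 and mA19d#7, and 28.0% and 37.2% in the control lines. The log2 difference over all lines was -1.04 (SE 0.153, limma adjusted p = 0.00449), or -0.98 (adjusted p = 0.00331) without the mA19d#7 differentiation library. It passed whichever single library was left out (10 fits, adjusted p 0.00331 to 0.0396) but not without either control line (up to 0.174). A two-sided exact sign-flip test over the 5 lines gave p = 0.0625, the smallest value it can give.

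Spry1 and Spry2 were higher in level than Spry4 on the length-scaled TPM scale, and neither passed. Spry1 had 83.3, 133.0 and 35.8 TPM after withdrawal in the Atrx-deleted lines mA16d#4, mA19d#4 and mA19d#7, against 88.5, 123.9 and 154.5 TPM with growth factors. Control NSC#1 and Control NSC#2 had 40.6 and 61.5 TPM after withdrawal, against 99.3 and 80.1 TPM with growth factors. Spry1 was thus lower in both control lines and in mA19d#7, and nearly level in mA16d#4 and mA19d#4. Its log2 difference over all lines was -0.76 (SE 0.32, limma adjusted p = 0.169), and -0.50 without the mA19d#7 differentiation library. It passed only without the mA19d#4 differentiation library (adjusted p = 0.0449), among the 10 libraries left out in turn.

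Spry2 had 176.6, 296.5 and 207.5 TPM after withdrawal in mA16d#4, mA19d#4 and mA19d#7, against 323.4, 212.5 and 284.6 TPM with growth factors. The control lines had 171.3 and 180.3 TPM after withdrawal, against 243.2 and 246.4 TPM with growth factors. Only mA19d#4 had the higher level after withdrawal, and 4 of 5 lines had the lower one. The log2 difference was -0.38 (95% interval -0.75 to -0.01, limma adjusted p = 0.185).

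Spred1 and Spred2 encode Sprouty-related proteins that bind neurofibromin and hold back RAS. Spred2 (ENSMUSG00000045671, chromosome 11, 19924375 to 20024026, plus strand, GRCm38) had 85.3, 83.5 and 60.0 TPM after withdrawal in mA16d#4, mA19d#4 and mA19d#7, against 87.9, 89.3 and 85.7 TPM with growth factors. Control NSC#1 and Control NSC#2 had 48.0 and 55.8 TPM after withdrawal, against 88.7 and 88.0 TPM with growth factors. All 5 proliferation libraries lay within 85.7 to 89.3 TPM, and every differentiation library lay below them. The log2 difference over all lines was -0.49 (SE 0.125, limma adjusted p = 0.0353), and -0.41 (adjusted p = 0.018) without the mA19d#7 differentiation library. With a whole line left out, Spred2 passed only without mA19d#7. Its difference was -0.4317 without Control NSC#1 and -0.5446 without Control NSC#2. With the cell line as a fixed block the adjusted p was 0.0568, and leaving out single libraries moved it over 0.05 in 7 of 10 cases (up to 0.149).

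Spred1 had 154.1, 178.3 and 100.3 TPM after withdrawal in mA16d#4, mA19d#4 and mA19d#7, against 121.6, 139.9 and 148.3 TPM with growth factors. The control lines had 151.3 and 150.7 TPM after withdrawal, against 153.2 and 154.0 TPM with growth factors. The control levels were nearly the same in both media, while the Atrx-deleted lines differed among themselves in direction. Its log2 difference was 0.01 with a 95% interval of -0.34 to 0.36 (limma adjusted p = 0.983).

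The phosphatases did not pass over all lines. Dusp6 encodes a cytoplasmic phosphatase that acts on ERK. It had 64.3, 99.9 and 85.3 TPM after withdrawal in mA16d#4, mA19d#4 and mA19d#7, against 96.6, 77.4 and 100.2 TPM with growth factors. Control NSC#1 and Control NSC#2 had 62.9 and 87.1 TPM after withdrawal, against 86.6 and 70.8 TPM with growth factors. The media overlapped in both genotypes, and 3 of 5 lines were lower after withdrawal. Dusp6 had the narrowest span of the 10 genes, with the highest library 1.59 times the lowest, and its log2 difference was -0.11 (95% interval -0.47 to 0.24, limma adjusted p = 0.709).

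Dusp4 (ENSMUSG00000031530, chromosome 8, 34807297 to 34819894, plus strand, GRCm38) encodes a nuclear MAP kinase phosphatase. It had 14.0, 12.8 and 22.7 TPM after withdrawal in mA16d#4, mA19d#4 and mA19d#7, against 8.62, 6.33 and 7.8 TPM with growth factors. In Control NSC#1 and Control NSC#2 it had 3.99 and 7.97 TPM after withdrawal, against 10.8 and 9.08 TPM with growth factors. The level was higher after withdrawal in all 3 Atrx-deleted lines and lower in both control lines, and over all lines the log2 difference was 0.14 (SE 0.246, limma adjusted p = 0.766). It was the lowest of the 10 genes on the TPM scale, with a mean of 10.4 TPM over the 10 libraries.

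Of the PEA3 factors, Etv5 (ENSMUSG00000013089, chromosome 16, 22381309 to 22439719, minus strand, GRCm38) was the most abundant of the 10 genes, with a mean of 357.9 TPM. It had 271.0, 382.2 and 212.9 TPM after withdrawal in mA16d#4, mA19d#4 and mA19d#7, against 313.6, 394.5 and 584.1 TPM with growth factors. In Control NSC#1 and Control NSC#2 it had 181.4 and 193.1 TPM after withdrawal, against 600.5 and 445.7 TPM with growth factors. All 5 lines were lower after withdrawal, but mA19d#4 kept 96.9% of its proliferation level and mA16d#4 86.4%. The share left was 36.5% in mA19d#7, 30.2% in Control NSC#1 and 43.3% in Control NSC#2. The log2 difference over all lines was -1.02 (SE 0.21, limma adjusted p = 0.0159), and -0.92 (adjusted p = 0.0155) without the mA19d#7 differentiation library. Without Control NSC#1 it was -0.886 and without Control NSC#2 -1.145, each with a single control library per medium, and it did not pass without either line. It missed 0.05 without the Control NSC#1 proliferation library (adjusted p = 0.0928) or either control differentiation library (0.0736 without Control NSC#1, 0.0654 without Control NSC#2).

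Etv1 had 173.3, 118.6 and 50.9 TPM after withdrawal in mA16d#4, mA19d#4 and mA19d#7, against 157.6, 98.2 and 114.8 TPM with growth factors. The control lines had 110.7 and 114.6 TPM after withdrawal, against 181.5 and 152.4 TPM with growth factors. Etv1 was lower after withdrawal in both control lines and in mA19d#7 and higher in the other Atrx-deleted lines. Its log2 difference was -0.40 (SE 0.289, limma adjusted p = 0.422), and -0.16 (adjusted p = 0.561) without the mA19d#7 differentiation library. In the Atrx-deleted lines alone it was -0.25 with that library and 0.24 without it.

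Etv4 had 120.2, 104.3 and 32.7 TPM after withdrawal in mA16d#4, mA19d#4 and mA19d#7, against 55.9, 70.7 and 67.9 TPM with growth factors. Control NSC#1 and Control NSC#2 had 78.8 and 89.7 TPM after withdrawal, against 74.4 and 64.7 TPM with growth factors. It was the member with the higher level after withdrawal in 4 of 5 lines, and mA19d#7 was the exception. The log2 difference was 0.24 (limma adjusted p = 0.683) over all libraries, and 0.53 (adjusted p = 0.0157) without the mA19d#7 differentiation library, where Etv4 counted as risen.

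**Figure D2:**
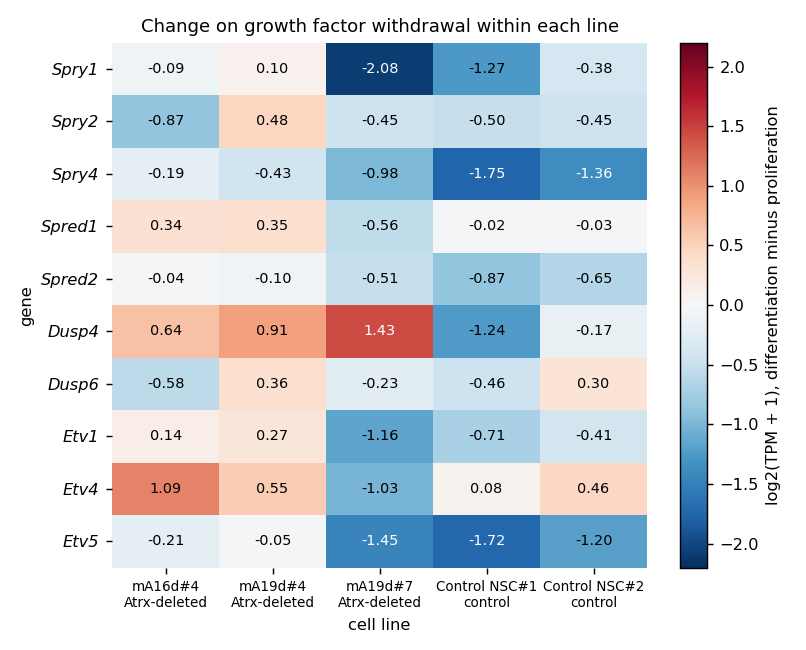
Change on withdrawal within each cell line for the 10 genes, as the log2(TPM + 1) level in differentiation minus that in proliferation medium (colour scale and printed value); Atrx-deleted lines stand left of control lines. For Spry4, Spred2 and Etv5 the values of mA16d#4 and mA19d#4 lie at -0.43 to -0.04. Those of mA19d#7 lie at -1.45 to -0.51, and those of the control lines between -1.75 and -0.65.

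Taken by genotype, the withdrawal difference passed in the control lines only for Spry4 and Etv5, both lower. Among all tested genes 4.51% passed in the control lines and 2.56% fell. Spry4 changed by -1.55 (SE 0.237, limma adjusted p = 0.00969) and Etv5 by -1.46 (SE 0.325, adjusted p = 0.035) on the log2 scale. With the cell line as a fixed block Etv5 had an adjusted p of 0.0674. Leaving out the Control NSC#1 proliferation library, the Control NSC#1 differentiation library or the Control NSC#2 differentiation library moved Spry4 over 0.05 (adjusted p = 0.15, 0.0936 and 0.0615) and Etv5 too (0.299, 0.198 and 0.161), and Etv5 was also lost without the Control NSC#2 proliferation library (0.0958) or the mA19d#4 proliferation library (0.0593). Spred2 was at -0.76 (adjusted p = 0.0552), and passed with the line as a random block (adjusted p = 0.0463) and without the mA19d#7 differentiation library (0.0115), which enters through the shared spread. In all, 9 of the 10 genes were below 0 in the control lines, where 50.8% of all tested genes were, and the median was -0.632. At an unadjusted p under 0.05 there were 3 of the 10, Spry4, Etv5 and Spred2, and 19.9% of all tested genes.

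In the Atrx-deleted lines none of the 10 genes passed, and 0.083% of all tested genes did. At an unadjusted p under 0.05 there were 2 of the 10 genes, Spry4 and Dusp4, and 14.8% of all tested genes. Spry4 changed by -0.53 (SE 0.194, limma adjusted p = 0.247), Etv5 by -0.57 (SE 0.265, adjusted p = 0.354) and Dusp4 by 0.99 (SE 0.311, adjusted p = 0.198). Without the mA19d#7 differentiation library Etv4 was at 0.79 (adjusted p = 0.04) and Etv5 at -0.37 (adjusted p = 0.464). The median over the 10 genes was -0.233.

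**Figure D3:**
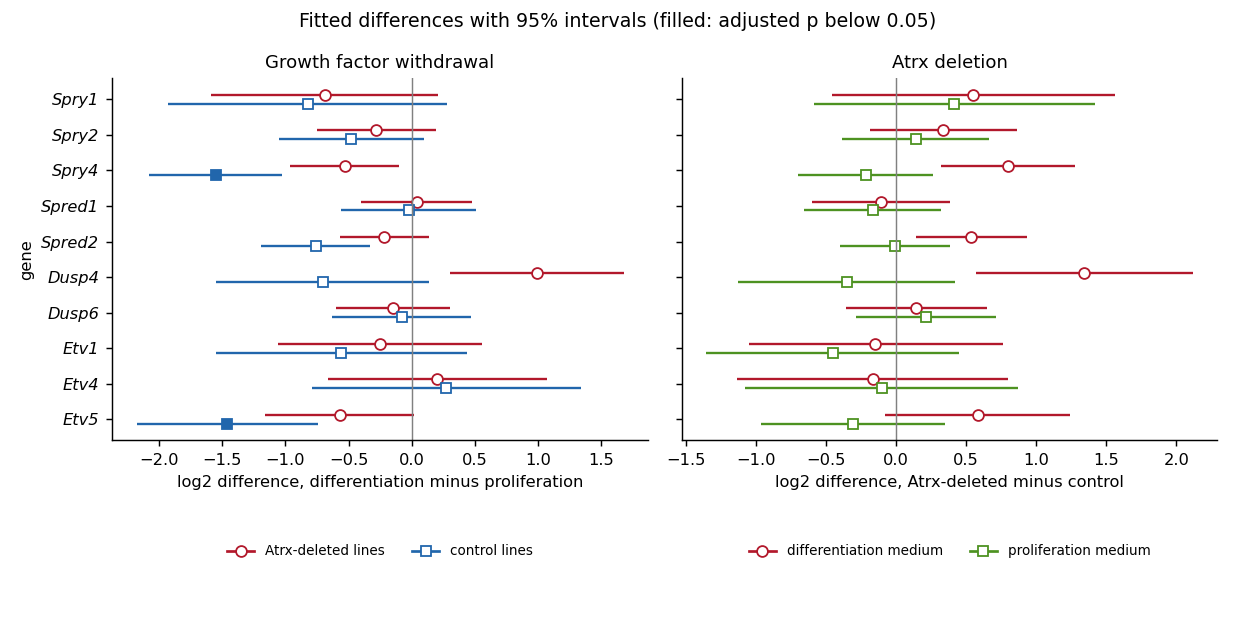
Fitted log2 differences of the 10 genes with 95% intervals (points and bars, log2(TPM + 1)) on withdrawal in the Atrx-deleted and control lines, and for the Atrx-deleted minus the control lines, by medium. Intervals of Spry4 and Etv5 on withdrawal in control lines, -2.08 to -1.03 and -2.18 to -0.74, lie below 0; that of Dusp4 runs from 0.30 to 1.68 in the Atrx-deleted lines and from -1.55 to 0.14 in the control lines.

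Whether withdrawal acted differently in Atrx-deleted and control lines was tested as the interaction, the Atrx-deleted difference minus the control difference. None of the 10 genes passed, and 1 of the 15660 tested genes did (0.00639%). At an unadjusted p under 0.05 there were 2 of the 10, Dusp4 and Spry4, and 7.02% of all tested genes. Dusp4 had the greatest interaction of the 10 genes, 1.70 (SE 0.492, limma adjusted p = 0.476), and Spry4 followed with 1.02 (SE 0.306, adjusted p = 0.495). Etv5 was at 0.89 (95% interval -0.04 to 1.83) and Spred2 at 0.54 (-0.01 to 1.10), so the intervals include differences of over 1 log2 unit as well as 0.

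Atrx-deleted lines were then compared with control lines within each medium. The labels number the control libraries under 1 code and the Atrx-deleted libraries under another without saying what the codes stand for, and handling that followed them cannot be told apart from genotype. In differentiation medium none of the 10 genes passed, where 2.89% of all tested genes did. At an unadjusted p under 0.05 there were 3 of the 10, Dusp4, Spry4 and Spred2, all higher in the Atrx-deleted lines, and 20.2% of all tested genes. Dusp4 averaged 16.5 ± 5.42 TPM in the Atrx-deleted lines (SD, n = 3) and 5.98 ± 2.82 TPM in the control lines (SD, n = 2), a log2 difference of 1.34 (SE 0.348, limma adjusted p = 0.0687). Spry4 had 24.1, 23.4 and 18.0 TPM in the Atrx-deleted lines, against 11.4 and 12.6 TPM in the control lines, a difference of 0.80 (SE 0.217, limma adjusted p = 0.0793). For Spred2 the means were 76.3 ± 14.1 TPM in the Atrx-deleted lines (SD, n = 3) and 51.9 ± 5.53 TPM in the control lines (SD, n = 2), a difference of 0.53 (limma adjusted p = 0.132). Dusp4, Spry4, Spred2 and Etv5 did not overlap between the genotypes, and the other 6 genes did; the genotypes also did not overlap in 36.3% of all tested genes. Without the mA19d#7 differentiation library Spry4 (0.93, adjusted p = 0.0346) and Spred2 (0.70, adjusted p = 0.0253) passed, and Dusp4 was at 1.10 (adjusted p = 0.0856). Over the 10 genes the median was 0.433, against 0.0158 over all tested genes, with 7 above 0.

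In proliferation medium none of the 10 genes passed, where 0.46% of all tested genes did, and none reached an unadjusted p under 0.05, where 13.7% did. The median over the 10 genes was -0.138. Spred2 averaged 87.6 ± 1.83 TPM in the Atrx-deleted lines (SD, n = 3) and 88.3 ± 0.52 TPM in the control lines (SD, n = 2), with a 95% interval of -0.40 to 0.38 for the log2 difference. Etv5 averaged 430.8 ± 139.0 TPM in the Atrx-deleted lines (SD, n = 3) and 523.1 ± 109.0 TPM in the control lines (SD, n = 2), a log2 difference of -0.31 (95% interval -0.97 to 0.35). Spred1 and Dusp4 did not overlap, both lower in the Atrx-deleted lines, by 0.17 and 0.35 on the log2 scale as fitted, and neither did 38% of all tested genes, in either direction.

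Markers of dividing cells and of astrocytes moved in the same comparisons. Over all lines 16 of 24 cell cycle and DNA replication genes fell on withdrawal and none rose, with a median of -1.22. Mki67, a marker of dividing cells, had 55.6, 163.1 and 90.5 TPM after withdrawal in mA16d#4, mA19d#4 and mA19d#7, against 189.6, 169.1 and 170.2 TPM with growth factors. In Control NSC#1 and Control NSC#2 it had 23.1 and 23.5 TPM after withdrawal, against 305.7 and 171.5 TPM with growth factors. In differentiation medium 15 of the 24 genes were higher in the Atrx-deleted than in the control lines. The 14 astrocyte markers summed to 6038.3 to 12456.9 TPM after withdrawal in the Atrx-deleted lines, against 5362.5 to 6036.2 TPM with growth factors. In the control lines they summed to 14115.9 to 14998.7 TPM after withdrawal, against 3501.6 to 4521.8 TPM with growth factors, and over all lines 6 of the 14 rose and none fell. Gfap stood at 1411.5 TPM in the mA19d#7 differentiation library and at 1.57 to 79.5 TPM in the other 9. The part of these changes in the results for the 10 genes was not tested.

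Around the 10 genes, the Sprouty and Spred list held 1 more tested gene, Spred3, with a log2 difference of -0.43 on withdrawal over all lines (limma adjusted p = 0.125), so 2 of 6 fell. None of 9 tested dual-specificity phosphatases passed in any comparison over all 10 libraries. Of 12 ETS genes 3 fell over all lines and 11 were below 0, and besides Etv5 these were Ets1 (-1.23, limma adjusted p = 0.0215) and the ERK-regulated repressor Erf (-0.68, adjusted p = 0.0369). Ets1 had 110.5, 190.5 and 54.5 TPM after withdrawal in mA16d#4, mA19d#4 and mA19d#7, against 164.6, 192.0 and 224.3 TPM with growth factors. The control lines had 92.2 and 103.7 TPM after withdrawal, against 295.5 and 301.3 TPM with growth factors. The levels of Ets1 in mA19d#4 were nearly the same in both media.

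Of 14 other feedback inhibitors 1 fell, Fgfrl1, a receptor of the FGF family that lacks a kinase domain. It had 348.3, 286.2 and 392.9 TPM after withdrawal in mA16d#4, mA19d#4 and mA19d#7, against 397.0, 308.3 and 441.1 TPM with growth factors. In Control NSC#1 and Control NSC#2 it had 197.8 and 169.8 TPM after withdrawal, against 508.1 and 404.2 TPM with growth factors. All 5 lines were lower, the control lines by more, with log2 differences of -0.73 (limma adjusted p = 0.0154) over all lines and -1.30 (adjusted p = 0.0153) in the control lines, and an interaction of 1.15 (adjusted p = 0.419).

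With all 10 libraries in the fit, the genes of the EGF and FGF ligand and receptor lists that passed over all lines rose. Fgfrl1, which fell, was counted with the feedback inhibitors and not with the receptors. Of 18 tested EGF and FGF ligands 3 rose over all lines and none fell: Hbegf, which encodes an EGF receptor ligand, Fgf2, which encodes bFGF itself, and Fgf12, an intracellular FGF homologue (1.45, limma adjusted p = 0.00475). Hbegf had 44.8, 42.5 and 257.4 TPM after withdrawal in mA16d#4, mA19d#4 and mA19d#7, against 12.4, 23.9 and 19.6 TPM with growth factors. In Control NSC#1 and Control NSC#2 Hbegf had 125.3 and 147.0 TPM after withdrawal, against 12.2 and 22.9 TPM with growth factors. All 5 lines were higher, and the log2 difference was 2.51 (limma adjusted p = 0.0105). Fgf2 had 6.85, 3.07 and 8.34 TPM after withdrawal in the 3 Atrx-deleted lines, against 0.829, 3.47 and 2.29 TPM with growth factors, and 28.2 and 10.4 TPM after withdrawal in the control lines, against 1.78 and 1.77 TPM with growth factors. Fgf2 was higher in every line except mA19d#4 (1.94, adjusted p = 0.013). Of 8 receptors 2 rose over all lines, Erbb4 (1.60, limma adjusted p = 0.00299) and Fgfr2 (0.84, adjusted p = 0.0232), and none fell. Egfr, the EGF receptor, was at -0.32 (adjusted p = 0.0995), and it fell without the mA19d#7 differentiation library (-0.36, adjusted p = 0.0396).

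**Figure D4:**
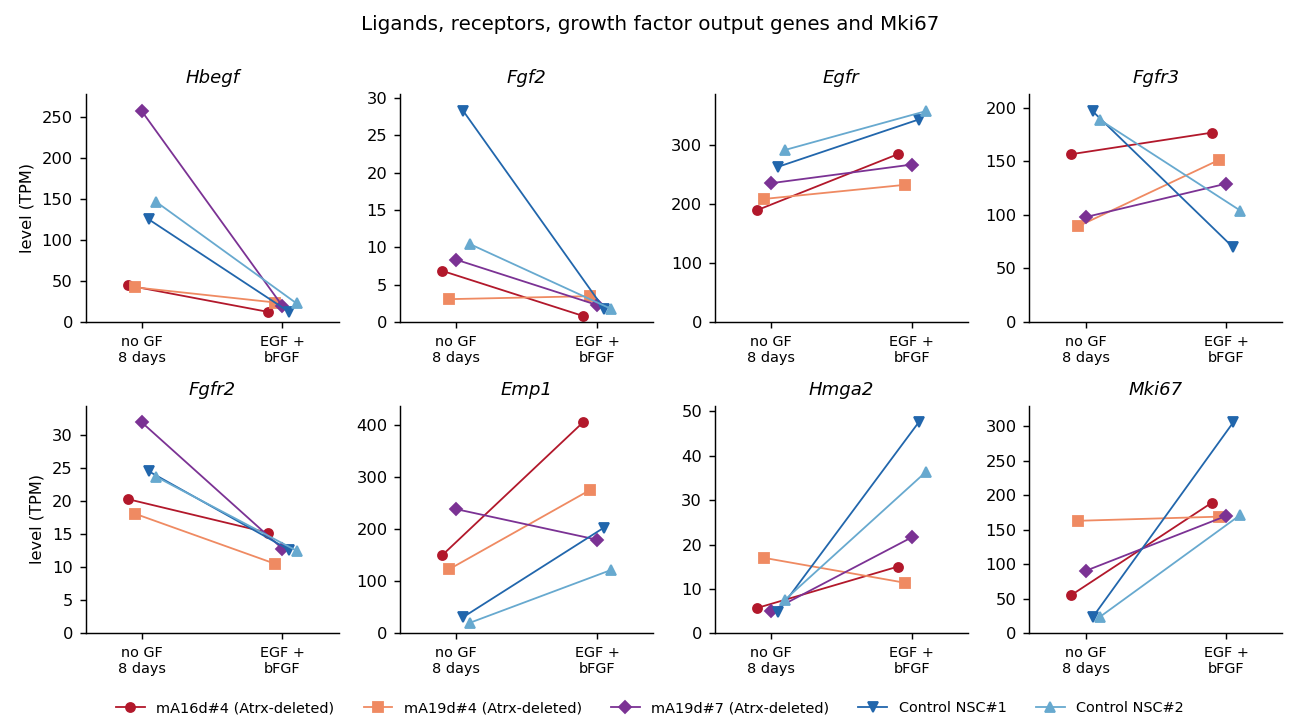
Levels in TPM of ligand genes (Hbegf, Fgf2), receptor genes (Egfr, Fgfr3, Fgfr2), other growth factor output genes (Emp1, Hmga2) and Mki67 in differentiation medium without growth factors (left) and in proliferation medium (right), 1 joined pair per cell line. Hbegf is higher without growth factors in all 5 lines, and Mki67 in mA19d#4 is nearly level at 163.1 TPM without and 169.1 TPM with growth factors.

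The signalling cassette was read beside all tested genes, of which 10.4% passed over all lines, 4.68% higher and 5.72% lower. Of 23 adaptors and kinases from Grb2 to the ribosomal S6 kinases, 1 rose over all lines, the phosphatase gene Ptpn11 (0.52, limma adjusted p = 0.0181), and 2 fell, the ERK1 gene Mapk3 (-0.83, adjusted p = 0.0192) and the adaptor gene Shc1 (-0.78, adjusted p = 0.0232). The capicua list had 5 tested genes, of which its partner Atxn1 rose (1.13, limma adjusted p = 0.0187). Cic had 32.3, 47.2 and 58.2 TPM after withdrawal in mA16d#4, mA19d#4 and mA19d#7, against 75.5, 69.1 and 67.2 TPM with growth factors. In the control lines Cic had 66.1 and 62.6 TPM after withdrawal, against 75.4 and 89.8 TPM with growth factors. It was lower in all 5 lines, at -0.50 (adjusted p = 0.0735), and at -0.59 (adjusted p = 0.0169) without the mA19d#7 differentiation library.

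Among 27 tested immediate early genes 2 rose, Ctgf (3.06, limma adjusted p = 0.00292) and Cyr61 (1.69, adjusted p = 0.0377), and 2 fell, Egr2 (-2.05, adjusted p = 0.0291) and Zfp36 (-1.33, adjusted p = 0.0121). Among 15 other growth factor output genes 2 fell, Hmga2 (-1.73, limma adjusted p = 0.0118) and Emp1 (-1.65, adjusted p = 0.00672), and none rose. Emp1, a membrane protein gene, had 149.8, 123.0 and 237.9 TPM after withdrawal in mA16d#4, mA19d#4 and mA19d#7, against 31.4 and 20.6 TPM in the control lines. It was the one gene of its list past the test between genotypes in that medium (2.64, limma adjusted p = 0.0104). In the signalling cassette the docking protein gene Gab1 was higher in the Atrx-deleted lines in differentiation medium (1.06, adjusted p = 0.0102), and in the ligand list Fgf14 was lower (-1.86, adjusted p = 0.0401). Among the immediate early genes Ctgf was lower in the Atrx-deleted lines there (-2.76, adjusted p = 0.0232). Without the mA19d#7 differentiation library 16% of all tested genes passed over all lines, and 2 immediate early genes and 1 ETS gene rose, while 5 immediate early genes, 4 ETS genes and 1 phosphatase gene fell.

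Across the 10 libraries the 10 genes varied together in part. Over the 45 pairs of genes the median Pearson r of log2(TPM + 1) was 0.32, with 36 pairs above 0. Spry4 and Etv5 had r = 0.94, Spry4 and Spred2 0.93, and Spred1 and Etv4 0.88, while Spred1 and Dusp4 had -0.38. The libraries come from 5 lines in 2 media, so these values mix the media with the lines and are descriptions only. The 10 genes' levels, each scaled to mean 0 and SD 1 and averaged, were -1.07, -0.94 and -0.49 in Control NSC#1, mA19d#7 and Control NSC#2 in differentiation medium, and 0.04 to 0.70 in the other 7 libraries. Of 12022 genes with a mean of at least 5 TPM, those most like this average over the 10 libraries were Hmgb3 (r = 0.953), Wipf1 (0.942) and Rabif (0.939). For Etv5 they were Zfp120 (0.984), Adam12 (0.984) and Neurl1a (0.958), for Spry4 Tle6 (0.961), Neurl1a (0.96) and Pcgf3 (0.954), and for Dusp4 Efnb2 (0.875), Gm29766 and Pcnxl4 (0.871 each). These genes were picked as the highest of 12022 values over only 10 libraries, and shared regulation was not tested.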

How the data were processed

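Gene expression was measured by RNA sequencing of total RNA in 10 libraries, 1 per cell line and medium. The values are log2 TPM as the authors deposited them; per the submitters' processing notes reads were aligned with STAR to mm10, with versions, annotation and quantification tool not given in the sources used here. Every library holds the same sorted set (sum 997524 TPM, lowest log2 value -8 for 1213 genes), so the table was quantile-normalised, depth is unknown, and changes of total RNA are invisible.

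After back-transformation, limma 3.58.1 under R 4.3.3, with its mean-variance trend, was run on log2(TPM + 1) with 4 group means over all 10 libraries and 6 residual degrees of freedom. Tested were the genes that reached 1 TPM in 2 or more libraries, and all 10 genes passed. Within each of the 6 comparisons p-values were adjusted by Benjamini-Hochberg over every tested gene, with a threshold of 0.05. The fit was tested on simulated data. The media were also compared within lines with an exact sign-flip test over the 5 lines, and in a fit with the line as a block, because the same cell lines were sampled in both media. The correlation of deviations from the group means between a line's libraries was 0.159 for mA16d#4, 0.404 for mA19d#4, -0.194 for mA19d#7 and 0.062 for the control lines.

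The 10 genes and the 17 lists of other genes, written from general knowledge, were chosen with earlier results of these data known. All 10 genes are given, and of each list up to 3 genes called higher and 3 called lower; Spred3, Egfr, Cic, Nes, Gfap and Mki67 were added. Some genes of the lists are not reported here. Gene positions are from GENCODE M21. Other settings tried are given in the closing section.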

Additional observations from a re-analysis of the deposited data

Results flagged for a closer look

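Dusp4 changed in opposite directions in the genotypes: its level after withdrawal was higher than with growth factors in all 3 Atrx-deleted lines and lower in both control lines. The change in the Atrx-deleted lines minus that in the control lines was 1.70 on the log2(TPM + 1) scale (SE 0.492, 95% interval 0.60 to 2.79). That difference was tested and did not pass (limma adjusted p = 0.476 over all tested genes, and 0.261 to 0.522 under the other settings). Without the mA19d#7 differentiation library it was 1.46 (adjusted p = 0.286). With any library or line left out it ran from 1.16 to 2.23.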

How the results depend on the processing

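Spry4 and Etv5 over all lines kept their direction and stayed past 0.05 under every other setting that gives a value (pseudocounts, filters, variance models, scaling, line blocks); Spred2 was lost without the trend (adjusted p = 0.0691) and with the replicate block of lines fixed (0.0568). In the control lines 2 genes passed, but 1 did with no filter, without the trend or with the replicate block of lines fixed. With Spred2 added, 3 passed with that block random (limma adjusted p of Spred2 0.0463) or fixed without mA19d#7 (0.0213). The same 3 passed with a weight per group (0.00323) and with median-of-ratios factors (0.0453). When only the compared groups were fitted, where fewer libraries set the spread, 5 passed. Of 720 gene values under these 13 settings 703 kept direction and side of the threshold, 5 fell short of it, 8 passed it and 4 turned, none of them past the threshold: Spred2 between genotypes in proliferation medium (0.00896, median-of-ratios factors) and, with the replicate block and mA19d#7 left out, Spry1 (0.0081) and Etv1 (0.20) on withdrawal in the Atrx-deleted lines and the Etv4 interaction (0.55). The causes were not tested. With the fixed block and mA19d#7 left out, Etv4 passed over all lines (adjusted p = 0.0307). Fits of only the compared groups give no value over all lines or for the interaction, and a fixed line block gives none between genotypes.

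Leaving out a library or a line, where a lone control library is assumed to vary like the others, the number of the 10 genes past the test ran from 0 to 4 over all lines, 0 to 1 in the Atrx-deleted lines, 0 to 3 in the control lines and 0 to 2 between genotypes in differentiation medium. Of 900 gene values 796 kept direction and side, 30 fell short, 12 passed and 62 turned, none of these past the threshold. Over all lines, the log2 differences that turned ran from -0.077 to 0.16 for Spred1, -0.12 to 0.41 for Dusp4 and -0.30 to 0.074 for Dusp6. In the Atrx-deleted lines they ran from -1.11 to 0.0081 for Spry1, -0.66 to 0.012 for Spry2, -0.13 to 0.34 for Spred1, -0.40 to 0.067 for Dusp6, -0.63 to 0.24 for Etv1 and -0.24 to 0.82 for Etv4, and in the control lines from -0.46 to 0.30 for Dusp6. Between genotypes they ran from -0.025 to 0.0045 for Spred2 in proliferation medium, and in differentiation medium from -0.28 to 0.13 for Spred1, -0.089 to 0.37 for Dusp6, -0.53 to 0.35 for Etv1 and -0.51 to 0.41 for Etv4. Interactions ran from -0.31 to 0.83 for Spry1, -0.19 to 0.49 for Spry2, -0.11 to 0.37 for Spred1, -0.44 to 0.31 for Dusp6, -0.073 to 0.80 for Etv1 and -0.51 to 0.55 for Etv4.

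Over all tested genes the number past the test, when a library or a line was left out, ran from 1 to 2509 on withdrawal over all lines (1629 with all libraries), from 0 to 348 in the Atrx-deleted lines, from 0 to 1447 in the control lines, and from 1 to 935 between genotypes in differentiation medium (452 with all libraries). With 2 control lines, every result on them rests on a single pair of libraries per medium.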

Other observations

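The genotypes differed in other lists of differentiation medium that the 10 genes do not belong to. Among oligodendrocyte lineage genes Pdgfra and Bcas1 were lower in the Atrx-deleted than in the control lines there, and of 14 astrocyte markers Apoe and Slc4a4 were lower. Bcas1, a gene of early myelinating oligodendrocytes, averaged 21.5 ± 10.2 TPM in the Atrx-deleted lines (SD, n = 3) and 84.2 ± 3.26 TPM in the control lines (SD, n = 2), a log2 difference of -2.03 (limma adjusted p = 0.0403). It was also lower in proliferation medium (-2.52, limma adjusted p = 0.0471). Apoe, the main lipid carrier of astrocytes, averaged 1127.8 ± 280.0 TPM in the Atrx-deleted lines (SD, n = 3) and 6031.8 ± 860.0 TPM in the control lines (SD, n = 2), a log2 difference of -2.44 (limma adjusted p = 0.0372).

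Of 15 stem and progenitor genes 4 fell on withdrawal over all lines and none rose: Hes5 (-1.56, limma adjusted p = 0.0438), Id3 (-1.27, adjusted p = 0.0155), Nes (-0.92, adjusted p = 0.00703) and Hes1. Of 14 tested neuronal genes 1 rose, Elavl3, and none fell. Of 5 tested endothelial and mural genes 1 rose, Acta2, at 0.0866 to 3.02 TPM after withdrawal in the Atrx-deleted lines and 4.08 to 4.53 TPM in the control lines. None of 4 tested microglial genes passed.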
